A study of Mus musculus with 18 samples.

Results

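The UDP-glucuronosyltransferases (UGT) and cytosolic sulfotransferases (SULT) of mouse small intestinal crypts were followed after loss of Prmt1, the gene for the main protein arginine methyltransferase. The genes were chosen by symbol, as every row of the count table whose name begins with Ugt1, Ugt2, Ugt3, Ugt8 or Sult1 to Sult6 and does not end in -ps, a pseudogene mark that left out 6 rows. This gave 43 of 55335 rows, 22 UGT and 21 SULT genes. KO mice were PRMT1 fl/fl with CreERT2, a tamoxifen-activated Cre recombinase driven by the villin promoter of the intestinal epithelium, and WT mice were PRMT1 fl/fl without Cre. All mice were aged 8 to 12 weeks and received 2 mg tamoxifen per injection, so both genotypes carry the floxed alleles and the treatment. Injections were daily, with 5 given before days 7 and 14, while day 2 mice were taken during the course, before the next injection. Crypts were collected at day 2, 7 or 14 after the first injection, with 3 biological replicates of each genotype per day, which gives 6 groups and 18 libraries of ribosomal RNA-depleted total RNA. Cells in which Cre does not act keep Prmt1, and the methods state that age and sex were matched between genotypes.

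Both enzyme families make small molecules more soluble. UGT enzymes of the endoplasmic reticulum join glucuronic acid, taken from UDP-glucuronate, to bilirubin, bile acids, steroids and drugs, and SULT enzymes of the cytosol transfer sulfate from the donor PAPS. The products leave the cell through ABCC transporters and can be split again by beta-glucuronidase or sulfatases, and the gut epithelium is a known site of such conjugation for swallowed compounds. The Ugt1a genes are a special case, because alternative first exons, each with its own promoter, are joined to the same later exons.

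Total counts per library ranged from 12844642 to 31493484, with a median of 21266804.5. Levels are CPM, counts divided by library size after TMM scaling. A limit of 3 counts covers counting error only. By total counts, before TMM scaling, it corresponds to 0.0953 CPM in the deepest and 0.234 CPM in the shallowest library. The Prmt1 level was between 13.1 and 17.4 CPM in the 9 KO libraries and between 20.2 and 30.6 CPM in the 9 WT libraries, with log2 fold changes of -0.89 at day 2 (SE 0.14 and adjusted p = 0.0264), -0.59 at day 7 (SE 0.14 and adjusted p = 0.00675) and -0.72 at day 14 (SE 0.14 and adjusted p = 0.00329). The summed level of 7 epithelial markers was 4825 to 9191 CPM per library, that of 9 immune markers 51.1 to 121 CPM and that of 10 hepatocyte and pancreatic acinar markers 15.4 to 30.4 CPM. All log2 fold changes, standard errors (SE) and adjusted p values come from 1 fit of all 18 libraries with edgeR's quasi-likelihood test and Benjamini-Hochberg adjustment over 21349 genes, and a gene was called at an adjusted p under 0.05. In bulk RNA, fewer cells of a type and less RNA per cell cannot be told apart.

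Of the 43 genes, 23 passed the filter on low counts, 16 UGT and 7 SULT genes. The other 20 were not tested. Among them 12 had no count in any of the 18 libraries, namely Ugt3a1, Ugt3a2, Sult1c1, Sult2a1 to Sult2a7, Sult3a1 and Sult3a2. The Sult2a genes encode hydroxysteroid sulfotransferases best known from liver. The remaining 8 had few counts, with at most 9 in a library. Their totals over the 18 libraries were 55 for Sult4a1, 29 for Ugt2a1, 25 for Ugt2a2, 24 for Ugt2b37, 21 for Sult5a1, 20 for Ugt8a, 5 for Sult1e1, the estrogen sulfotransferase, and 1 for Sult2a8.

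Per length of the row, which joins the exons of all transcripts of a gene, the mean level over the 18 libraries was highest in the Ugt1a rows and in Ugt2b34. A row can be longer than its longest transcript, which lowers its value. The lengths were 4219 against 3302 bases for Ugt1a7c and 3950 against 1858 bases for Sult2b1, so the order depends in part on row length. The Ugt1a1 row had 174.7 CPM per kb, Ugt1a5 150.1, Ugt1a2 149, Ugt1a9 149, Ugt1a8 145, Ugt1a10 142 and Ugt1a6b 141 CPM per kb, values that cannot be added because the rows share exons. Ugt2b34 followed with 120 CPM per kb and had the largest level before division by length, 519 CPM. The Ugt1a7c row had 112 and the Ugt1a6a row 81 CPM per kb. Among the SULT genes the highest levels per length were those of Sult1d1 with 57.7 CPM per kb and Sult1b1 with 47.4 CPM per kb, which sulfate catecholamines and small phenols, respectively, among other substrates. Sult6b2 had 30.5 and Sult2b1, a cholesterol and hydroxysteroid sulfotransferase, 12.04 CPM per kb. Ugt2a3 reached 31.6 CPM per kb, Ugt2b35 20.7, Ugt2b5 14.3 and Ugt2b36 4.87 CPM per kb. The lowest levels among the tested genes were those of Sult1a1 with 2.51, Sult1c2 with 1.43, Sult6b1 with 0.724, Ugt2b1 with 0.415 and Ugt2b38 with 0.25 CPM per kb.

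The Ugt1a locus lies on chromosome 1 (mm10) on the forward strand, from 88055388, the start of the Ugt1a10 row, to 88220002, the end of the Ugt1a7c row. All 9 rows of the table held the same 1311 bases in 4 exons, chr1:88215044-88215175, chr1:88215795-88215882, chr1:88216138-88216357 and chr1:88218127-88218997. These shared bases made up 30.4% to 59.9% of the length of a row. Fragments in them were counted for every row, so the rows cannot be read as independent genes. The sequences at the splice joint show this directly. The last 20 bases of each first exon are in lower case and the first 20 bases of the shared second exon in capitals, from the GENCODE M21 transcripts.
Ugt1a1 junction: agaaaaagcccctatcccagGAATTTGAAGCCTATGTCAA
Ugt1a2 junction: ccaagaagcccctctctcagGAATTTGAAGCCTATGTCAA
Ugt1a5 junction: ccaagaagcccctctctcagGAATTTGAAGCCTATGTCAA
Ugt1a6a junction: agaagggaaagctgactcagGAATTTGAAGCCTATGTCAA
Ugt1a6b junction: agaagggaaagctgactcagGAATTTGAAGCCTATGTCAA
Ugt1a7c junction: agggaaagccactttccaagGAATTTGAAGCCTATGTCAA
Ugt1a8 junction: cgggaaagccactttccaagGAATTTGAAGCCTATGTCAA
Ugt1a9 junction: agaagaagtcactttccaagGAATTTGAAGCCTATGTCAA
Ugt1a10 junction: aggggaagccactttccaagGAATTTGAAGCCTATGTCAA

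The 9 joints have 7 distinct ends of the first exon. Ugt1a2 and Ugt1a5 end with the same 20 bases, as do Ugt1a6a and Ugt1a6b, whereas the end of the Ugt1a1 first exon differs from each of the other 8 at 5 to 10 of 20 bases. In capitals the 9 are identical.

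**Figure D1:**
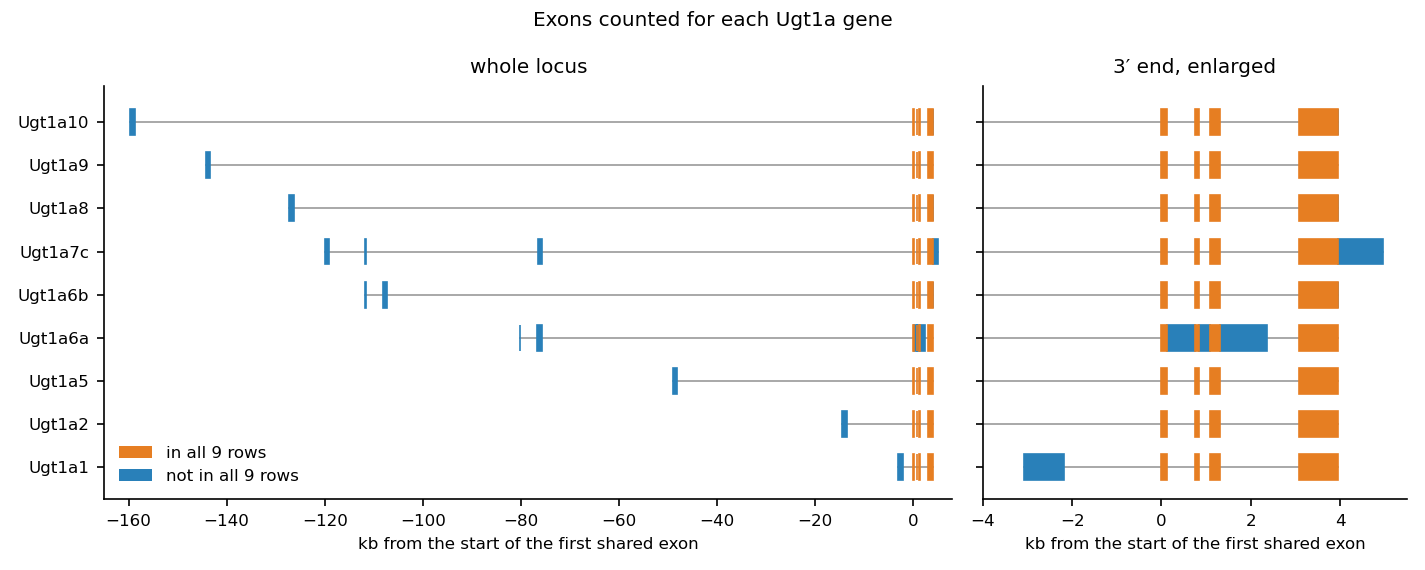
Blocks of the 9 Ugt1a rows by distance along the locus, drawn to scale, with the bases that all 9 rows hold in orange and the other bases in blue. The x axis is kb from the start of the first shared exon, the right panel enlarges the 3' end, and the first exons stand at different positions while the shared exons are the same in every row.

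KO and WT crypts were first compared at day 2, when the mice had received only the first injections. The edgeR test called 0 of the 23 genes, against 0.0328% of all genes tested, 0 of the 23 had an unadjusted p under 0.05, against 3.33% of all genes, and DESeq2's Wald test also called 0. The fitted log2 fold changes ran from -0.49 to 0.94, with 19 of 23 below 0 and a median of -0.28, where the median of all genes tested was -0.0048. With the Ugt1a10 row alone for the Ugt1a locus, whose 9 rows share exons, 11 of 15 were below 0, with a median of -0.19. Ugt2a3 had 94.8, 88.0 and 106 CPM in the KO and 149, 103 and 154 CPM in the WT libraries. These groups overlapped, and the log2 fold change was -0.49 (SE 0.27 and adjusted p = 0.999). Only Sult6b1 had all 3 KO libraries, 1.13, 1.26 and 1.42 CPM, below the 3 WT libraries, 1.93, 1.47 and 1.45 CPM, a position found for 3.86% of all genes tested, and 0 of 23 had every KO library above WT, against 4.3%.

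At day 7 Ugt2a3 fell and Ugt2b1 rose in KO crypts, 2 of 23 genes called, against 17.3% of all genes tested. The 1 called higher compares with 7.11% and the 1 called lower with 10.2% of all genes. Ugt2a3 (ENSMUSG00000035780.2), a UGT whose human counterpart conjugates bile acids, lies at chr5:87324972-87337195 on the reverse strand. Its level was 11.6, 13.6 and 12.5 CPM in the KO libraries and 68.4, 90.8 and 60.4 CPM in the WT libraries. The 3 KO libraries were close to each other and far below every WT library, with a log2 fold change of -2.54 (SE 0.29 and adjusted p = 2.11e-05).

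Ugt2b1 (ENSMUSG00000035836.2), an isoform abundant in liver, lies at chr5:86916638-86926530 on the same strand and was far less abundant. Its level was 3.56, 1.58 and 1.53 CPM in the KO libraries and 0.756, 0.575 and 0.394 CPM in the WT libraries of day 7, from 35 to 80 counts in KO and 9 to 21 counts in WT. The groups did not overlap, with KO replicate 1 above the other two, and the log2 fold change was 1.92 (SE 0.42 and adjusted p = 0.00353).

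The promoters of both genes, from 250 bases before to 50 after the gene's start, are shown because these genes of 1 chromosome moved in opposite directions. They come from RefSeq (GRCm38.p6), both on the reverse strand, with capitals for the searched motifs found in them.
Ugt2a3 promoter (chr5:87337146-87337445): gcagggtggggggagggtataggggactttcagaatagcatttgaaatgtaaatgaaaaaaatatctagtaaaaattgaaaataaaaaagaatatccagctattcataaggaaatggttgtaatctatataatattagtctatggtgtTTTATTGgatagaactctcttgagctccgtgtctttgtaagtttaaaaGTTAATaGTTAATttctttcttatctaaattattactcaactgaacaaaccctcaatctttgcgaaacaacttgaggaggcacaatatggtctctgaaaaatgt
Ugt2b1 promoter (chr5:86926454-86926753): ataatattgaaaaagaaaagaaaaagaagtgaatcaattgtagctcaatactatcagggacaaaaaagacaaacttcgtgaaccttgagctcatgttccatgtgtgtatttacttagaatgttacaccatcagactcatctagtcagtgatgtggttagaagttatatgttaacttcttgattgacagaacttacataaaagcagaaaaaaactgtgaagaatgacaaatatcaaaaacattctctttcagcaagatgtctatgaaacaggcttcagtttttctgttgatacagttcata

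On both strands 5 motifs were searched, none overlapping another in these windows. They were a TATA box (TATAAA), an HNF1 motif (GTTAAT, 1 arm of its palindrome), a CDX2 site core (TTTATNG), an XRE core (GCGTG), which the Ah receptor binds, and an ARE core (TGACNNNGC), which Nrf2 binds. The Ugt2a3 window held GTTAAT at -54 and -47 and TTTATTG at -102 from the gene's start, and the Ugt2b1 window held none of the 5. Of all 32851 promoters, 7.10% held the HNF1 motif, 10.9% the CDX2 core, 13.6% the TATA box, 32.4% the XRE core and 12.4% the ARE core. Among 24 promoters of 22 tested UGT and SULT genes, 7 held the HNF1 motif, 2 the CDX2 core, 2 the TATA box, 6 the XRE core and 0 the ARE core. A match of letters is a description and not a binding site.

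The other 21 tested genes were not called at day 7. Ugt2b34 (chr5:86889767-86906937) had 670, 594 and 445 CPM in the KO libraries and 417, 436 and 346 CPM in the WT libraries. All 3 KO libraries were above all 3 WT libraries, but by little in KO replicate 3, and the log2 fold change was 0.51 (SE 0.23 and adjusted p = 0.136). Ugt2b35 and Sult2b1 also lay higher in all KO libraries, with 63.9 to 89.1 against 60.8 to 63.3 CPM and 46.9 to 62.3 against 37.7 to 41.8 CPM, and their adjusted p were 0.369 and 0.337. With Ugt2b1 this makes 4 of 23 genes with every KO library above WT, against 15.9% of all genes tested, and 1 of 23, Ugt2a3, with every KO library below, against 17.7%. Sult6b2 had 80.9, 83.2 and 49.2 CPM in KO as against 45.8, 49.2 and 40.2 CPM in WT libraries, with the third KO library inside the WT range (log2 fold change 0.66, SE 0.44 and adjusted p = 0.354). Over the 23 genes the fitted log2 fold changes were above 0 in 20, with a median of 0.12 and of 0.0157 over all genes. Of these 20, 8 were Ugt1a rows, which share most of their fragments, and with the Ugt1a10 row alone for the locus 13 of 15 were above 0, with a median of 0.26. Among the 23 genes 3 had an unadjusted p under 0.05, against 29.9% of all genes.

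At day 14 Ugt2a3 was lower and Sult1a1 higher in KO crypts, again 2 of 23 genes called, against 7.92% of all genes tested (3.23% higher and 4.69% lower). The level of Ugt2a3 was 19.4, 28.4 and 15.2 CPM in KO as against 33.8, 84.8 and 70.6 CPM in WT libraries. WT replicate 1 lay well below the other two but still above every KO library, and the log2 fold change was -1.59 (SE 0.28 and adjusted p = 0.00184). A fit of only the day 14 libraries gave the same size with an adjusted p of 0.0784.

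Sult1a1 (ENSMUSG00000030711.16, chr7:126672865-126676432), the main phenol sulfotransferase, had 6.80, 6.50 and 4.99 CPM in the KO and 4.31, 3.08 and 3.06 CPM in the WT libraries of day 14. The groups did not overlap, with 74 to 129 counts in KO and 57 to 78 in WT, and the log2 fold change was 0.83 (SE 0.22 and adjusted p = 0.026). Its row overlaps Sgf29 on the opposite strand by 61 bases (4.05% of its length). The Sult1a1 call was lost in 5 of 14 other settings, among them the fits without KO day 14 replicate 1 (adjusted p = 0.104), KO replicate 2 (0.0768), WT replicate 2 (0.0991) or WT replicate 3 (0.0942). At day 7 its level was 3.42, 4.46 and 6.03 CPM in KO as against 3.92, 3.83 and 3.59 CPM in WT libraries, which overlapped (log2 fold change 0.29, SE 0.22 and adjusted p = 0.404). The day 2 values were 2.26, 2.17 and 1.98 CPM in KO as against 3.03, 2.62 and 2.12 CPM in WT libraries, without a call.

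Ugt2b1 overlapped between genotypes at day 14, with 0.632, 1.07 and 1.35 CPM in KO as against 0.227, 0.434 and 0.927 CPM in WT libraries (log2 fold change 0.85, SE 0.46 and adjusted p = 0.301). Sult6b2 had 24.8, 55.4 and 24.8 CPM in KO as against 6.57, 27.8 and 9.22 CPM in WT libraries (log2 fold change 1.24, SE 0.46 and adjusted p = 0.126). For both genes the KO library was the higher one in each same-numbered pair, and these edgeR values come from the fit without pairs. Sult1c2 was the further gene without overlap. It had 1.32, 3.41 and 2.63 CPM in KO as against 4.31, 4.50 and 3.89 CPM in WT libraries, and was not called (log2 fold change -0.80, SE 0.36 and adjusted p = 0.206). Thus 2 of 23 genes had every KO library below WT, against 14.1% of all genes, and 1 of 23, Sult1a1, every KO library above, against 12.4%. Of the 23 fitted log2 fold changes 20 were above 0, with a median of 0.19 and of 0.0022 over all genes. With 1 row for the Ugt1a locus it was 12 of 15, with a median of 0.22. Of the 23 genes, 4 had an unadjusted p under 0.05, against 21.6% of all genes.

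**Figure D2:**
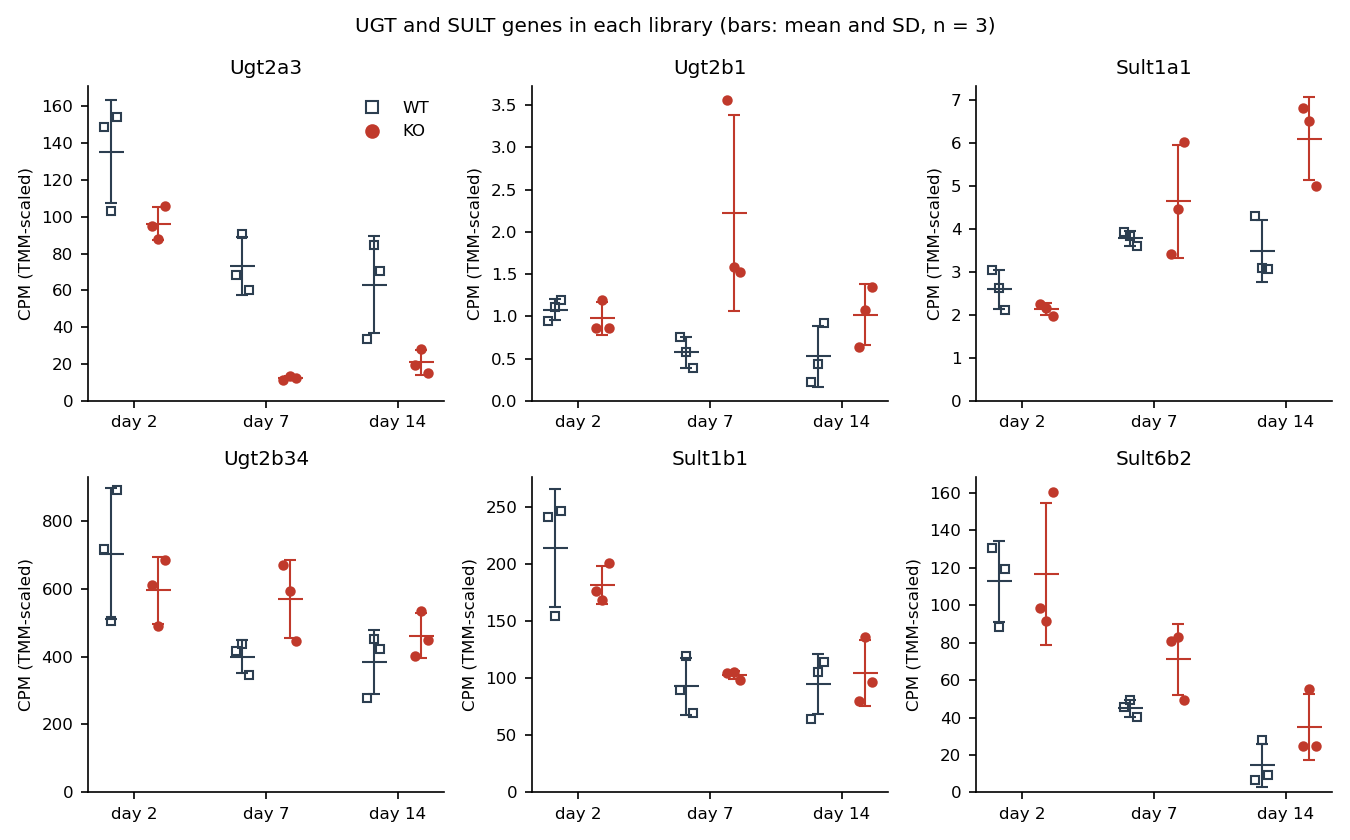
CPM of Ugt2a3, Ugt2b1, Sult1a1, Ugt2b34, Sult1b1 and Sult6b2 at days 2, 7 and 14, on linear axes, with 1 point per library (squares WT, circles KO) and the mean with SD of 3. Ugt2a3 of KO lies at 11.6 to 13.6 CPM at day 7, below every WT library, and Sult1b1 and Sult6b2 are lower at the later days in WT.

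**Figure D3:**
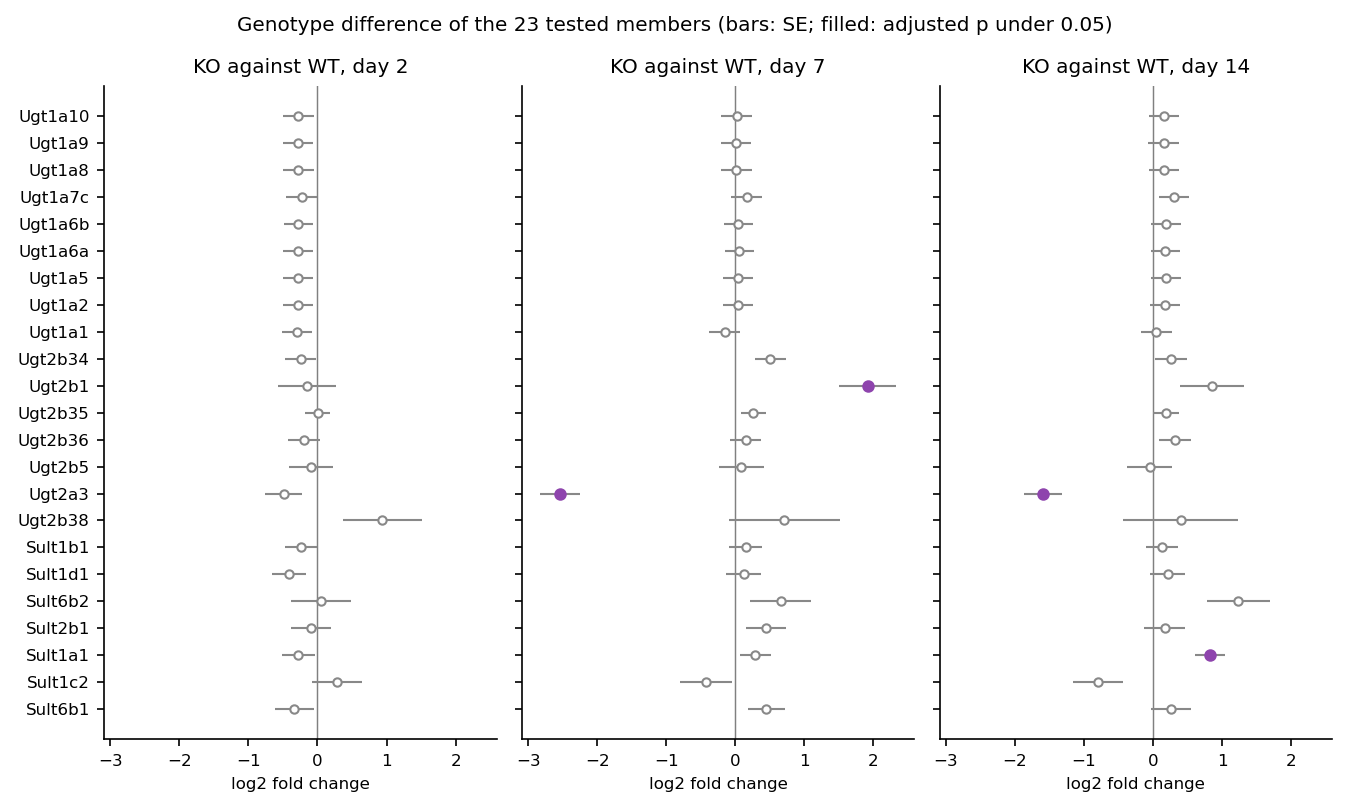
Fitted log2 fold change of KO against WT for the 23 tested genes at days 2, 7 and 14, with bars of 1 SE and filled points for genes with an adjusted p under 0.05. Ugt2a3 lies at -2.54 at day 7 and -1.59 at day 14, while most other genes lie within 1 log2 unit of 0.

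Whether the effect of genotype itself changed between days was tested as a difference of differences. Between days 7 and 2 this called 1 of 23 genes, against 4.37% of all genes (3.04% lower), and 3 had an unadjusted p under 0.05, against 18.1%. The effect on Ugt2a3 was lower at day 7 by a log2 difference of -2.05 (SE 0.39 and adjusted p = 0.00666). For Ugt2b1 the difference was 2.07 (SE 0.59 and adjusted p = 0.0524). Between days 14 and 2 edgeR called 0 of 23 genes, against 1.04% of all genes, with 3 at an unadjusted p under 0.05, against 11.9% of all genes, and DESeq2's Wald test called 0. The Ugt2a3 difference was then -1.10 (SE 0.39 and adjusted p = 0.222). Between days 14 and 7 edgeR and DESeq2 called 0 of 23 genes, against 0% of all genes by edgeR, with 1 at an unadjusted p under 0.05, against 4.46% of all genes, Ugt2a3 (difference 0.95, SE 0.39 and adjusted p = 0.999). These 3 differences share libraries.

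None of the 9 Ugt1a rows was called at any day, and their log2 fold changes ran from -0.15 to 0.17 at day 7 and from 0.05 to 0.30 at day 14. The Ugt1a10 row had 351, 322 and 389 CPM in KO as against 391, 327 and 569 CPM in WT libraries at day 2. Its day 7 values were 355, 311 and 264 CPM in KO as against 290, 310 and 319 CPM in WT libraries, and at day 14 it had 247, 299 and 308 CPM in KO as against 161, 318 and 285 CPM in WT libraries. The groups overlapped on each day. The Ugt1a2, Ugt1a5, Ugt1a6b, Ugt1a8 and Ugt1a9 rows differ from it in their first exons and share its later exons. Direction within this group is set by single libraries. For Ugt1a10, leaving out KO day 7 replicate 1 turned the fitted value of that day from 0.02 to -0.07, and without WT day 14 replicate 1, the lowest library of the row, that of day 14 turned from 0.16 to -0.08.

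Part of the isoform information can be recovered, because the Ugt1a10 row was the lowest of the 9 in 18 of 18 libraries. The count of another row above it, in the same library, is a net value, the fragments on the bases of that row that Ugt1a10 lacks minus those on the 949 bases that Ugt1a10 alone holds, so a change of Ugt1a10 moves it as well. For Ugt1a1 (ENSMUSG00000089960.1, chr1:88211959-88218997), whose enzyme conjugates bilirubin, the bases that Ugt1a10 lacks are its first exon of 913 bases, chr1:88211959-88212871. It was lower in KO crypts at day 7. The excess was 36.8, 30.4 and 26.9 CPM in the KO and 62.2, 86.7 and 71.5 CPM in the WT libraries. Every KO library lay below every WT library, at 0.427 of the WT mean (p = 0.1 in an exact two-sided permutation test, which cannot give less with 3 against 3). By contrast, the whole Ugt1a1 row overlapped, with 391, 342 and 291 CPM in KO as against 352, 396 and 390 CPM in WT libraries.

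At day 2 the Ugt1a1 excess was 74.8, 85.8 and 86.7 CPM in KO as against 96.8, 83.0 and 142 CPM in WT libraries, and at day 14 it was 32.0, 46.3 and 41.1 CPM in KO as against 38.2, 73.9 and 65.2 CPM in WT libraries. Both days overlapped (exact permutation test, p = 0.3 on each). At day 14, where same-numbered libraries deviated together, the KO library was the lower one in 3 of 3 same-numbered pairs. An edgeR fit with the pairs as a block, chosen after the data were seen, gave a log2 fold change of -0.54 (SE 0.16 and adjusted p = 0.0515) for this excess. As a share of the Ugt1a1 row, the excess stood apart on both later days. At day 7 it was 8.88% to 9.40% of the row in KO and 17.7% to 21.9% in WT libraries, and at day 14 it was 11.5% to 13.4% in KO and 18.6% to 19.2% in WT libraries (exact permutation test, p = 0.1 on each day). At day 2 the shares were 17.6% to 21.1% in KO and 19.9% to 20.3% in WT libraries (p = 0.4, same exact test).

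The promoter of Ugt1a1 is shown because its excess gave the largest difference in CPM that was lower in KO. The sequence is from RefSeq (GRCm38.p6), forward strand, with capitals for the HNF1 motif on the opposite strand at -41, the only one of the 5 motifs found in it.
Ugt1a1 promoter (chr1:88211709-88212008): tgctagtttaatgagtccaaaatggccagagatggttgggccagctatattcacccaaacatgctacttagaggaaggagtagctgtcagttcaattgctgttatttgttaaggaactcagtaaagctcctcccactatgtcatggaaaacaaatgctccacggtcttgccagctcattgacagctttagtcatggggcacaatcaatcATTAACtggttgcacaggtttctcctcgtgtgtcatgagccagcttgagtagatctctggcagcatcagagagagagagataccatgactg

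Limits apply to the excesses, that of Ugt1a1 first. The antisense gene Gm20528 covers 528 of the 913 bases of this first exon (57.8%), and reads of both strands were counted together, so these genes cannot be told apart there. It also covers 534 bases of the Ugt1a10 row, 394 of them in the shared exons and the others in bases that every excess subtracts, so the limit touches each excess. All 1062 bases of Gm20528 lie in exons of Ugt1a rows, and the count of its row is no measure of the antisense gene by itself.

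The excess of some other rows lay higher in all KO libraries. For Ugt1a2 it was 9.58 ± 1.67 CPM in KO as against 5.53 ± 0.864 CPM in WT at day 7, and 8.85 ± 1.44 against 4.75 ± 0.651 CPM at day 14 (mean ± SD, n = 3 per group, exact permutation test, p = 0.1 on each day). The Ugt1a5 values were 11.2 ± 2.52 against 6.61 ± 1.36 CPM at day 7 and 11.4 ± 1.18 against 5.58 ± 1.03 CPM at day 14 (same exact test, p = 0.1 on each). Ugt1a6b, of the group that conjugates small planar phenols, had 19.2 ± 2.42 against 12.96 ± 2.76 CPM at day 7 and 17.2 ± 2.47 against 9.65 ± 2.34 CPM at day 14 (same exact test, p = 0.1 on each). KO and WT libraries did not overlap in these 6 comparisons, which are described for that reason. Over all 21 comparisons of 7 rows on 3 days, KO lay above WT without overlap in 9 and below in 4, against 4.3% above and 3.86% below among all genes at day 2, 15.9% and 17.7% at day 7 and 12.4% and 14.1% at day 14. Ugt1a9 was lower in all KO libraries at day 2, with 3.02 to 3.41 CPM against 3.43 to 7.99 CPM (exact permutation test, p = 0.1), and at day 7, with 0.845, 1.37 and 1.14 CPM against 3.67, 1.85 and 2.98 CPM (same exact test, p = 0.1). At day 14 it overlapped (exact test, p = 0.7). Ugt1a8 exceeded Ugt1a10 by at most 13 counts in any library and was left out of the exact tests.

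The Ugt1a6b, Ugt1a7c and Ugt1a6a rows are not specific. Of the 1065 bases of Ugt1a6b that Ugt1a10 lacks, 938 are in no other row, and a block of the others is also part of Ugt1a7c. The Ugt1a7c row holds besides a longer 3' end and the first exon of Ugt1a6a, and the Ugt1a6a row holds blocks within introns of the locus. The excesses of Ugt1a7c and Ugt1a6a at day 7 were 181 ± 19.7 against 132 ± 9.12 CPM and 35.2 ± 4.89 against 25.2 ± 3.98 CPM in KO against WT (exact permutation test, p = 0.1 on each). In all, 7 rows were compared on 3 days, 21 exact tests, none of which could give a p under 0.1. Refitted with edgeR beside all other genes, a test chosen after the data were seen, the day 7 excess of Ugt1a1 had a log2 fold change of -1.23 (SE 0.23 and adjusted p = 0.0011), that of Ugt1a2 0.78 (SE 0.20 and adjusted p = 0.0100) and that of Ugt1a9 -1.35 (SE 0.46 and adjusted p = 0.04996). The day 7 excess of Ugt1a6a was called too (adjusted p = 0.0487), while those of Ugt1a5 (0.0676), Ugt1a8 (0.0931), Ugt1a7c (0.135) and Ugt1a6b (0.137) were not. At day 14 Ugt1a2 (adjusted p = 0.00864) and Ugt1a5 (0.0288) were called, and Ugt1a6b (0.0538), Ugt1a7c (0.0855), Ugt1a1 (0.135), Ugt1a6a (0.186), Ugt1a8 (0.497) and Ugt1a9 (0.625) were not. With the same-numbered pairs as a block, Ugt1a6b (edgeR adjusted p = 0.0168) and Ugt1a7c (0.0281) were called as well at day 14, and with the replicate number as the block they were not (0.0753 and 0.0847).

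**Figure D4:**
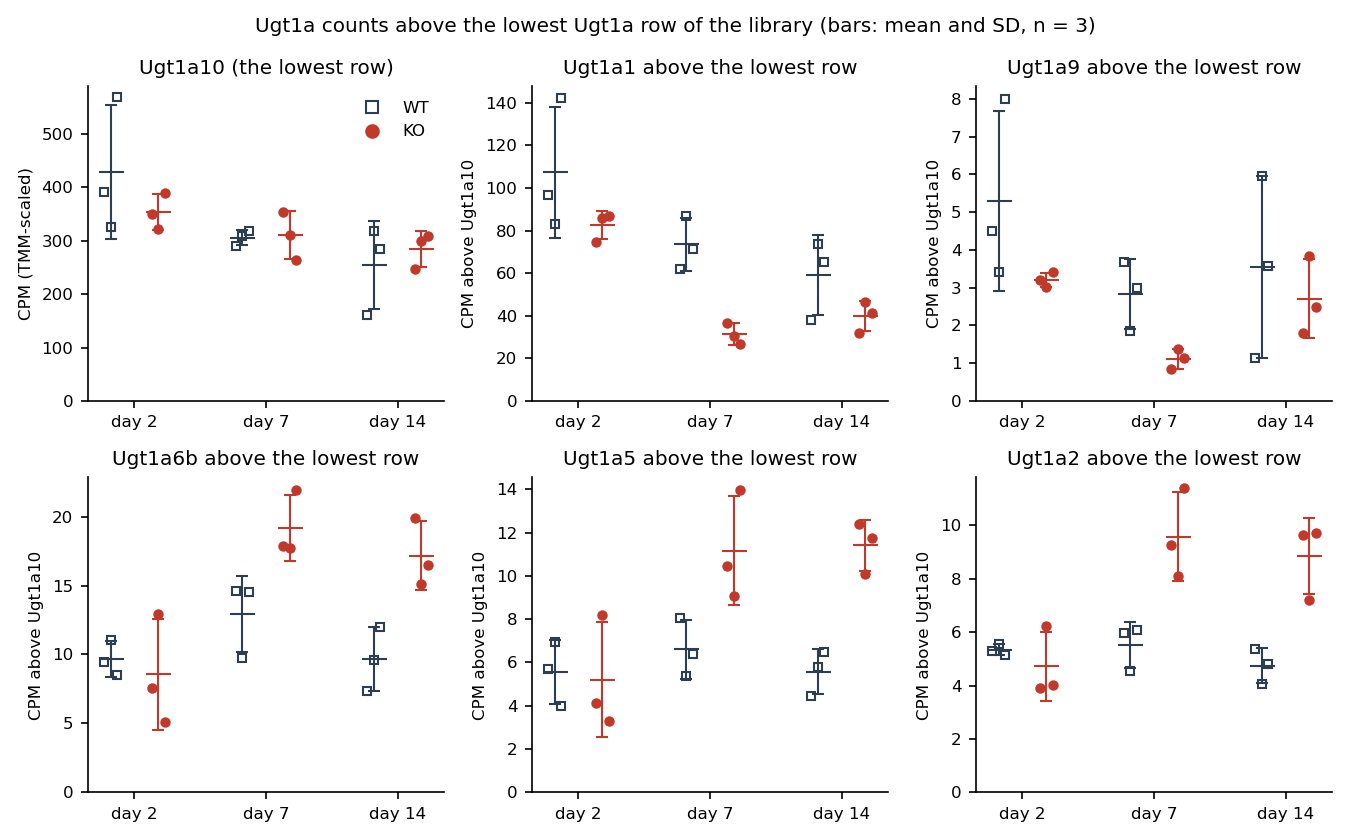
Count of each Ugt1a row above the Ugt1a10 row of the same library, in CPM on linear axes, for WT (squares) and KO (circles) at days 2, 7 and 14, with 1 point per library and the mean with SD of 3; the first panel gives the Ugt1a10 row itself. The Ugt1a1 points of KO crypts lie at 26.9 to 36.8 CPM at day 7, below the WT points at 62.2 to 86.7 CPM, while Ugt1a2, Ugt1a5 and Ugt1a6b lie higher in KO.

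Mean levels of other rows inside the locus were also higher in KO at days 7 and 14, a difference that was not tested. At day 14 Gm15370 overlapped between genotypes, with 3.49 to 8.33 CPM per kb in KO and 2.65 to 6.27 CPM per kb in WT. The 8 pseudogene rows between the first exons (Gm15368 to Gm15374 and Gm15376) had a median level of 12.4 CPM per kb in KO and 7.68 CPM per kb in WT at day 7, and of 10.9 and 6.74 CPM per kb at day 14. On the same scale the day 7 excess of Ugt1a2 was 10.6 in KO and 6.15 in WT, that of Ugt1a5 12.5 and 7.41 and that of Ugt1a6b 18.01 and 12.2 CPM per kb, within the range of these pseudogene rows. The Ugt1a1 excess, 34.3 CPM per kb in KO and 80.5 CPM per kb in WT, differed in the other direction. In KO it lay within the range of the pseudogene rows, 9.18 to 35.3 CPM per kb, and in WT above their range, 5.85 to 20.5 CPM per kb. The part of RNA from between the first exons in the excesses was not tested.

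In WT crypts Sult1b1 was lower at days 7 and 14 than at day 2, and Sult6b2 at day 14, while 0 of the 16 tested UGT genes were called by edgeR on either day, with 12 at day 7 and 15 at day 14 at an unadjusted p under 0.05. Over all 23 UGT and SULT genes, the Wald test of DESeq2 called 5 at day 7, where it called 7.08% of all genes, and 15 at day 14, where it called 6.48%. From day 2 to day 7 the log2 fold change was below 0 for 22 of 23 genes, with a median of -0.49 and of 0.0141 over all genes. With 1 row for the Ugt1a locus it was below 0 for 14 of 15, with 9 of 15 at an unadjusted p under 0.05. The edgeR test called 1 gene, Sult1b1, against 0.553% of all genes (0.3% lower), and 16 of 23 had an unadjusted p under 0.05, against 22.4% of all genes. Sult1b1 had 241, 155 and 246 CPM in WT libraries of day 2 and 89.9, 119 and 69.4 CPM at day 7, without overlap (log2 fold change -1.21, SE 0.24 and adjusted p = 0.0383). The call was lost in 5 of 14 other settings. The adjusted p rose to 0.167 or 0.126 when replicate 1 or replicate 3 of WT day 2 was left out, and to 0.0861 or 0.227 when replicate 1 or replicate 3 of WT day 7 was, and with the replicate number as a block it was 0.0551.

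From day 2 to day 14 the log2 fold change in WT crypts was below 0 for 21 of 23 genes, with a median of -0.75 and of 0.0088 over all genes. With 1 row for the locus it was below 0 for 13 of 15, and 12 of 15 had an unadjusted p under 0.05. Sult1b1 and Sult6b2 were called lower, against 1.61% of all genes called (0.871% lower), and 20 of 23 had an unadjusted p under 0.05, against 20% of all genes. Sult1b1 had 64.7, 105 and 114 CPM in the WT libraries of day 14 (log2 fold change -1.17, SE 0.24 and adjusted p = 0.0226). Sult6b2 fell from 130, 88.5 and 119 CPM at day 2 to 6.57, 27.8 and 9.22 CPM at day 14 in WT libraries, a log2 fold change of -2.93 (SE 0.48 and adjusted p = 0.0123). The day 14 libraries were all below those of day 2, with WT replicate 2 the highest of day 14.

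These WT counts depended on single libraries and on the tool. The edgeR test called 15 of 23 genes between days 14 and 2 when WT day 2 replicate 2 was left out (3.23% of all genes), 1 when its replicate 3 was (0.28%), and 0 when either its replicate 1 (0.101%) or replicate 1 of WT day 14 (0.214%) was. DESeq2's Wald test called 15 with every library, as given above. In these counts each Ugt1a row is a gene of its own. Both comparisons use the same WT day 2 libraries. Mice of day 2 had also received fewer injections and were nearer to the last one. In these comparisons day, tamoxifen dose and time since the last dose cannot be told apart. Between WT days 14 and 7, edgeR and DESeq2 called 0 of 23 genes, against 0.0796% of all genes by edgeR, and 2 had an unadjusted p under 0.05, against 5.18% of all genes. The summed level of 12 enterocyte markers in the same libraries was 15892 to 36572 CPM at day 2, 12000 to 14417 CPM at day 7 and 5650 to 14606 CPM at day 14. Its part in the differences between days was not tested.

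**Figure D5:**
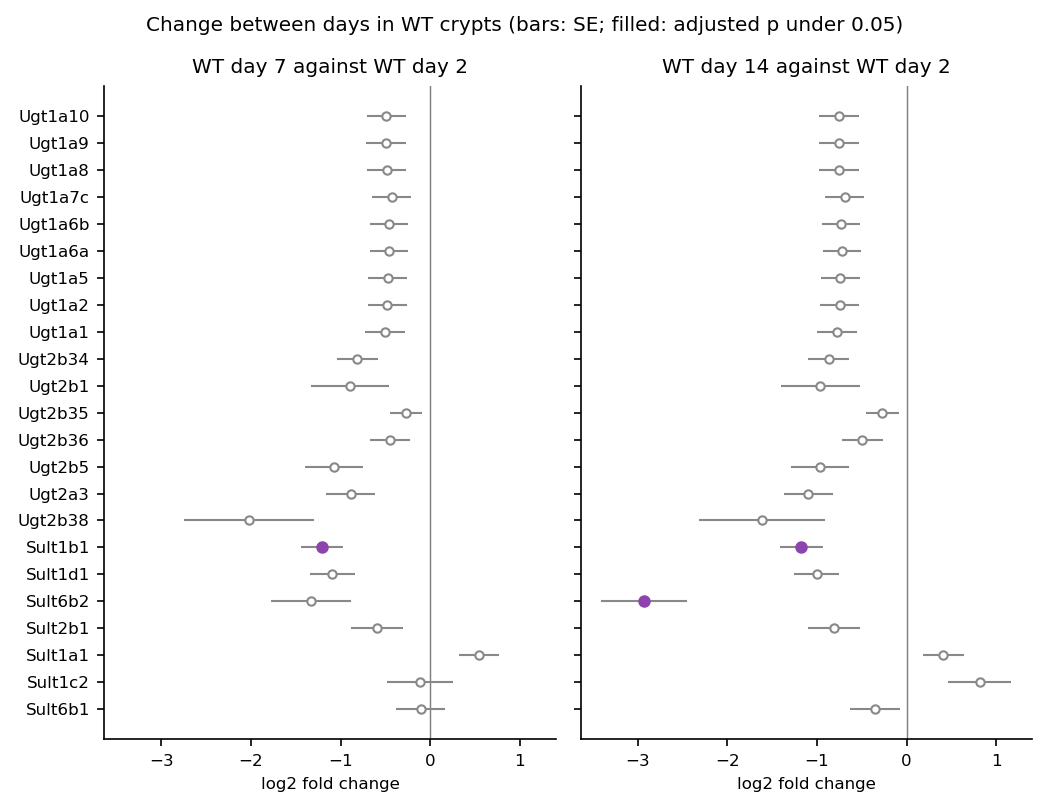
Fitted log2 fold change of WT day 7 and WT day 14 against WT day 2 for the 23 tested genes, with bars of 1 SE and filled points for genes with an adjusted p under 0.05. Most points lie below 0, with medians of -0.49 and -0.75, and Sult6b2 at day 14 is the lowest at -2.93.

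Summed over the 7 tested SULT genes, the mean level was 529.6 CPM in KO as against 617 CPM in WT at day 2, 351 and 290.4 CPM at day 7 and 318 and 264 CPM at day 14. With the Ugt1a locus counted once, by the Ugt1a10 row, the 8 UGT rows summed to 1170.0 CPM in KO as against 1396 CPM in WT at day 2, 999.1 and 869.9 CPM at day 7 and 869.6 and 793 CPM at day 14. For both sums the KO and WT libraries overlapped on each of the 3 days.

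Genes that supply the donors of both reactions, and those of the next steps, were measured from lists. Over all genes tested, 17.3% were called at day 7 (7.11% higher and 10.2% lower) and 7.92% at day 14 (3.23% higher and 4.69% lower), with median log2 fold changes of 0.0157 and 0.0022. Of 5 genes for UDP-glucuronate supply, 2 rose at day 7 in KO crypts and 0 were called at day 14 by edgeR, with 1 at an unadjusted p under 0.05. Ugdh, which makes UDP-glucuronate, had 371 ± 142 CPM in KO as against 116 ± 7.64 CPM in WT at day 7 (mean ± SD, n = 3 per group, log2 fold change 1.68, SE 0.27 and adjusted p = 0.000268). Slc35d1, which carries UDP sugars into the endoplasmic reticulum, rose by a log2 fold change of 0.45 (SE 0.14 and adjusted p = 0.0288). Of 12 tested genes for sulfate uptake and PAPS, 2 rose on both days. Slc26a2, a sulfate transporter, had log2 fold changes of 0.88 at day 7 (SE 0.15 and adjusted p = 0.000562) and 0.72 at day 14 (SE 0.15 and adjusted p = 0.0054). Slc26a3, chiefly a chloride and bicarbonate exchanger, had 0.77 (SE 0.17 and adjusted p = 0.00418) and 0.58 (SE 0.17 and adjusted p = 0.0434). The list medians were 0.49 and 0.19 at day 7 and 0.21 and 0.22 at day 14.

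The 9 genes listed for export were Abcc1 to Abcc5, Abcg2, Abcb1a, Abcb1b and Slco2b1, so the list is wider than the ABCC family. Of the 9, 5 were called higher and 0 lower at day 7, and 2 higher and 0 lower at day 14. The medians of the whole list were 0.68 and 0.40. All 5 genes called at day 7 were of the ABCC family. Abcc2, the apical pump for glucuronides, had 1141 ± 314 CPM in KO as against 402 ± 48.7 CPM in WT at day 7 (log2 fold change 1.51, SE 0.25 and adjusted p = 0.000407). The day 14 level of Abcc2 was 609 ± 123 CPM in KO as against 251 ± 89.8 CPM in WT (log2 fold change 1.28, SE 0.25 and adjusted p = 0.00298). Abcc5 rose on both days as well, by log2 fold changes of 0.71 (SE 0.15 and adjusted p = 0.00258) and 0.51 (SE 0.15 and adjusted p = 0.0419). Abcc1, Abcc3 and Abcc4 rose at day 7 by log2 fold changes of 0.56 to 0.80.

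Of the 4 tested genes for splitting conjugates, 2 fell on both days and 0 rose, with list medians of -0.80 and -0.57. Arsb, a lysosomal sulfatase of glycosaminoglycans, had 2.14 ± 0.622 CPM in KO as against 11.7 ± 0.603 CPM in WT at day 7 (log2 fold change -2.45, SE 0.18 and adjusted p = 8.63e-08). At day 14 the Arsb level was 2.88 ± 0.0353 CPM in KO as against 12.97 ± 0.244 CPM in WT (log2 fold change -2.17, SE 0.18 and adjusted p = 1.25e-06). Arsa, the lysosomal sulfatase of sulfatides, fell by 1.08 (SE 0.21 and adjusted p = 0.00167) and 0.88 (SE 0.22 and adjusted p = 0.0144) on the log2 scale. These 2 genes act on lysosomal sulfates rather than on drug conjugates. Gusb, the beta-glucuronidase, had 25.9 ± 4.08 CPM in KO as against 26.6 ± 6.02 CPM in WT at day 7.

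Among 17 receptors and other regulators, Pparg, Nfe2l2 and Nr1h4 rose at day 7 by log2 fold changes of 0.63 to 0.74 and Nr3c1, the glucocorticoid receptor, fell by 0.62 (SE 0.14 and adjusted p = 0.00416). At day 14 edgeR called 0 of the 17, with 7 at an unadjusted p under 0.05. Of 13 genes that Ahr, Pxr or Nrf2 are known to switch on, 5 rose and 1 fell at day 7. The 5 were Nqo1, Gclc, Gclm, Srxn1 and Txnrd1, all known Nrf2 targets, with log2 fold changes of 0.93 to 1.49. Ces2a, a carboxylesterase that Pxr controls, had 81.8 to 103 CPM in the KO and 246 to 356 CPM in the WT libraries (log2 fold change -1.59, SE 0.28 and adjusted p = 0.000658). At day 14 edgeR called 0 of the 13, with 4 at an unadjusted p under 0.05.

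The makeup of the crypts moved with genotype as well. Of 12 enterocyte markers, 3 rose and 1 fell in KO at day 7, and their summed level was 17386 to 27739 CPM in KO as against 12000 to 14417 CPM in WT. At day 14 it was 13594 to 24757 CPM in KO as against 5650 to 14606 CPM in WT, with 1 marker called higher. All 8 Paneth cell markers fell at day 7, with sums of 1518 to 4192 CPM in KO as against 9442 to 15955 CPM in WT, and 1 fell at day 14. Of 6 stem cell markers, 4 fell at day 7, with sums of 460 to 1086 CPM in KO as against 1704 to 2315 CPM in WT, and 1 fell at day 14. Of 12 enteroendocrine markers, 10 rose and 1 fell at day 7, with sums of 749 to 926 CPM in KO as against 342 to 367 CPM in WT, and 9 rose and 1 fell at day 14. Of the other lists, 2 of 7 goblet cell and 1 of 6 tested tuft cell markers fell and 2 of 9 stromal markers rose at day 7, while edgeR called 0 of 7 epithelial, 0 of 9 immune and 0 of 6 proliferation markers, with 0, 0 and 1 at an unadjusted p under 0.05. At day 14 Clca1 of the goblet cell list and Top2a of the proliferation list fell, and Ttr of the hepatocyte and pancreatic acinar list rose (log2 fold change 1.00, adjusted p = 0.00718). The summed level of that last list was then 22.8 to 30.4 CPM in KO and 16.8 to 20.4 CPM in WT libraries. Of all these markers, Amy2a5 of the pancreatic list was the one at 0 in every library, and the part of the makeup in the differences of Ugt2a3, Ugt2b1, Sult1a1 and the Ugt1a1 excess was not tested.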

How the data were processed

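RNA-Seq counts of 18 libraries were used. Per the labels, the file headers and the study's methods, the authors aligned reads with STAR 2.7.3 to mm10, counted fragments per gene of GENCODE release 23 with featureCounts 1.6.4 without strand, counted fragments overlapping several genes for each, and deposited the counts without normalization. The methods name another GENCODE release than the table.

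Here 20 genes that differ between sexes were left out, low counts were filtered by group (filterByExpr, edgeR 4.0.16), and counts were scaled with TMM and fitted with edgeR's quasi-likelihood method (limma 3.58.1, R 4.3.3). DESeq2 1.42.0, other filters and scalings, a replicate block, fits of the groups compared and each library left out were alternatives. Ugt1a excesses were compared with exact permutation tests of the difference of means, two-sided, enumerated in Python. Tables, motifs and plots used Python 3.11.15, numpy 2.4.6, pandas 2.3.3 and matplotlib 3.10.9. The fit was tested on simulated data. No 2 replicates of a group agreed within sampling noise. The genes and lists were chosen with earlier results of these data known. The rule named genes called in KO against WT and the 8 highest per length, where the Ugt1a rows are described by Ugt1a10 and by their excess over it, and others were named for non-overlap or WT calls after their values were seen. At day 14, same-numbered KO and WT libraries deviated together (correlations 0.171, 0.216 and 0.308). The replicate block, which used the number across all days, changed no call of that comparison among the 23 tested genes. Same-numbered pairs within a day were a block only in the fit with the Ugt1a excesses.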

Additional observations from a re-analysis of the deposited data

Results flagged for a closer look

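The effect of genotype differed between days 7 and 2 for Ugt2a3, with a log2 difference of -2.05 by edgeR (adjusted p = 0.00666). The KO libraries were below the WT libraries in 3 of 3 cases at day 7 and overlapped at day 2.

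For the excess of the Ugt1a6a row over Ugt1a10, the log2 ratio of KO to WT was -0.34 at day 2, with all KO libraries below all WT libraries, and 0.48 at day 7, with all KO libraries above. The difference between these days was 0.82 by edgeR (SE 0.23, adjusted p = 0.0497), in a test chosen after the data were seen. This row includes blocks within introns of the locus.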

How the results depend on the processing

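The calls of Ugt2a3 at day 7 (14 of 14 alternatives) and of its day 7 to day 2 difference (20 of 20), and that of Ugt2b1 at day 7 (13 of 13), were kept. The cause of the changes below was not tested, apart from fewer genes or samples in the alternative itself. With a mean count of at least 50, which leaves Ugt2b1 out, the number of genes called was 1 for KO against WT at day 7, 2 for WT day 7 against day 2 and 6 for WT day 14 against day 2 (21%, 3.47% and 5.41% of all genes). In fits of only the groups compared it was 0 for KO against WT at day 14, 5 for WT day 7 against day 2, 0 for WT day 14 against day 2 and 2 for the KO effect of day 7 minus day 2 (6.52%, 2.87%, 0.14% and 3.67% of all genes). DESeq2's Wald test gave 5, 15 and 2 for the last 3 comparisons (7.08%, 6.48% and 6.57% of all genes), and no filter on low counts gave 4, 13 and 2 (2.59%, 2.59% and 2.81%). DESeq2's size factors gave 4 for WT day 14 against day 2 (2.07%), and leaving out the 20 most abundant genes gave 2 for WT day 7 against day 2 (1.35%). With the replicate block the latter count was 0 (0.089%), and the block changed no other count. Outside day 14, same-numbered KO and WT libraries had correlations of 0.035, 0.203 and 0.333 at day 2 and -0.073, 0.028 and -0.003 at day 7. The values of replicates 2 and 3 at day 2 were about as large as those of day 14 (0.171, 0.216 and 0.308). Whether the numbers mark pairs at day 2 was not tested, and at day 7 the libraries did not deviate together.

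With 1 library left out, the number called ranged from 2 to 3 for KO against WT at day 7 (9.43% to 19% of all genes). At day 14 it ranged from 1 to 2 (4.73% to 6.08%). It ranged from 0 to 3 for WT day 7 against day 2 (0% to 2.43%) and from 0 to 15 for WT day 14 against day 2 (0.101% to 3.23%). For the KO effect it ranged from 1 to 2 for day 7 minus day 2 (1.98% to 5.96%). For day 14 minus day 2 it ranged from 0 to 1 (0.51% to 1.02%). Ugt2b34 at day 7 was called in 1 of 14 alternatives, without KO day 7 replicate 3 (log2 fold change 0.69, edgeR adjusted p = 0.0451).

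Counts of an Ugt1a row above Ugt1a10, tested with edgeR after the data were seen, passed the threshold at day 7 for Ugt1a1 (-1.23), Ugt1a2 (0.78), Ugt1a6a (0.48) and Ugt1a9 (-1.35), and at day 14 for Ugt1a2 (0.91) and Ugt1a5 (1.02), all log2. With 1 library left out, the log2 ratio ranged from -1.36 to -1.09 for Ugt1a1 at day 7. With a replicate block the day 14 values were 0.903 for Ugt1a2 and 1.02 for Ugt1a5, and with same-numbered pairs of a day as the block they were 0.894 for Ugt1a2, 1.03 for Ugt1a5, 0.833 for Ugt1a6b and 0.642 for Ugt1a7c, each past the threshold. The same-numbered libraries of days 2 and 7 were blocked in that fit too, although those of day 7 did not deviate together. With 1 library left out, the log2 ratio turned sign for Ugt1a9 at day 14 (-0.81 to 0.21), and at day 2 for Ugt1a7c (-0.25 to 0.13), Ugt1a6b (-0.61 to 0.085) and Ugt1a5 (-0.58 to 0.15).

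Uncalled log2 fold changes of Ugt1a rows near 0 turned sign. At day 7, without the 20 most abundant genes they were -0.0017 for Ugt1a10, -0.0031 for Ugt1a8 and -0.0098 for Ugt1a9, with a mean count of at least 50 they were -0.00038 for Ugt1a8 and -0.0071 for Ugt1a9, and with no filter -0.0038 for Ugt1a9. With 1 library left out, the day 7 range was -0.067 to 0.15 for Ugt1a10, -0.045 to 0.16 for Ugt1a2, -0.041 to 0.16 for Ugt1a5, -0.031 to 0.16 for Ugt1a6b, -0.068 to 0.15 for Ugt1a8 and -0.074 to 0.14 for Ugt1a9. At day 14 it was -0.19 to 0.24 for Ugt1a1, -0.076 to 0.35 for Ugt1a10, -0.053 to 0.36 for Ugt1a2, -0.048 to 0.37 for Ugt1a5, -0.042 to 0.38 for Ugt1a6b, -0.074 to 0.35 for Ugt1a8 and -0.085 to 0.35 for Ugt1a9.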
